A study of Homo sapiens with 46 samples.

Results

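The genes described here are the 5 subunits of the transcription factor NF-kB (NFKB1, NFKB2, REL, RELA and RELB) and 5 genes that restrain or tune it (NFKBIA, NFKBIE, NFKBIZ, TNFAIP3 and BIRC3). They were chosen by name, and all 10 were among the 60668 gene identifiers of every count table. Their splicing events were those whose gene field held 1 of the 10 names, between 66 and 125 events per table out of 138022 to 218608. The series measured gene levels and splicing by RNA-seq after ASO-1570, an antisense oligonucleotide that targets the splicing factor gene TRA2B, and after an siRNA against the same gene.

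Cells of the breast cancer line MDA-MB-231 and of the glioblastoma line U87MG were transfected with lipofectamine and collected 48 h later. In each line 200 nM ASO-1570 was set against 200 nM of a control oligonucleotide (ASO-CTL), 50 nM ASO-1570 against 50 nM ASO-CTL, and 10 nM siRNA-TRA2B against 10 nM siRNA-CTL. These 12 groups had 3 libraries each, and the labels do not say whether the libraries came from separate cultures, so p-values measure the spread between libraries, which may be technical. In the fourth experiment a patient-derived breast tumour was grown in mice that the labels call immunocompetent and was injected directly with ASO-1570 or ASO-CTL at 50 mg/kg, 3 times per week for 4 weeks, with 5 tumours per group. All treated and control cells therefore shared exposure to a transfection reagent or, in the tumours, to repeated injection of an oligonucleotide. Labels of the MDA-MB-231 libraries at 50 nM and with siRNA name a glioblastoma cell type, against their titles and cell line field, and they were taken as MDA-MB-231 by their titles. The summed level of 8 breast epithelial markers was 1140 to 1460 CPM (counts scaled to a fixed library total) in those libraries and 4.8 to 10.9 CPM in all U87MG libraries.

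NF-kB is a dimer of REL-family proteins that is held in the cytoplasm by inhibitors of the IkB family until receptors for cytokines or microbial products activate the IkB kinases. Free dimers enter the nucleus and switch on inflammatory and survival genes, among them their own inhibitors, which closes a feedback loop. NFKB1 and NFKB2 are made as precursors that carry IkB-like repeats at their ends and are cut to the DNA-binding forms p50 and p52.

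By the GENCODE annotation of GRCh38 the subunits are NFKB1 (ENSG00000109320.13, chr4:102501329-102617302), NFKB2 (ENSG00000077150.20, chr10:102394110-102402529), REL (ENSG00000162924.14, chr2:60881521-60931610), RELA (ENSG00000173039.19, chr11:65653596-65663094) and RELB (ENSG00000104856.14, chr19:45001430-45038198). The inhibitors and feedback genes are NFKBIA (ENSG00000100906.10, chr14:35401511-35404749), NFKBIE (ENSG00000146232.16, chr6:44258166-44265788), NFKBIZ (ENSG00000144802.11, chr3:101827991-101861022), TNFAIP3 (ENSG00000118503.15, chr6:137867188-137883312) and BIRC3 (ENSG00000023445.14, chr11:102317450-102339403). RELA, NFKBIA and NFKBIE lie on the minus strand and the others on the plus strand.

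Letters that NF-kB dimers recognise stand in the promoters of most members. The RefSeq promoter table (GRCh38.p14) held an entry for 8 of the 10 genes. The 10-base kappa-B motif, the site that NF-kB dimers recognise, was searched on both strands in the 250 bases before each listed start. A match stood before at least 1 start of 7 of these 8 genes, with RELA the exception, while 10.0% of the 35116 entries of the table held a match, 1.7% held 2 or more and 0.31% held 3 or more. The count of members is per gene, over up to 3 listed starts, and the shares are per entry, so they are unlike measures. Overlapping matches were counted separately. Each of the 7 genes with a match has at least 1 window here, with the matched letters in capitals, 5′ to 3′ along the gene. The windows were chosen by the presence of a match and not by the response of the gene, and some matches of NFKBIZ and NFKB2 are left out. RELB and NFKBIE had no entry and were not searched. A match describes letters only and is not evidence of binding.
NFKBIA, chr14:35404809-35404842, minus strand: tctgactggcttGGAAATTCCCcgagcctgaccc
NFKB2, chr10:102394467-102394485, plus strand: tcatGGGAATTCCCCcctc
TNFAIP3, chr6:137867188-137867217, plus strand: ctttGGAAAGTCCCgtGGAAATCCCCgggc
BIRC3, chr11:102317273-102317306, plus strand: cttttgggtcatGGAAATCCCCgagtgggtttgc
BIRC3, chr11:102317337-102317370, plus strand: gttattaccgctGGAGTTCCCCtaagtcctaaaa
NFKBIZ, chr3:101827755-101827788, plus strand: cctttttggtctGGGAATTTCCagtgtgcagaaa
NFKB1, chr4:102501306-102501323, plus strand: cagtGGGAATTTCCagcc
REL, chr2:60881523-60881541, plus strand: ccgcGGGAAATTCCCctcc
The match lay 81 bases before the start of NFKBIA, 223 before the first listed start of NFKBIZ and 49 before a start of NFKB1. TNFAIP3 had matches 67 and 55 bases upstream, and BIRC3 had matches 199 and 135 bases upstream. All distances are to the listed RefSeq starts. The windows of TNFAIP3, NFKB2, REL and NFKB1 overlap exons of the GENCODE annotation. NFKB2 had 3 matches before 1 of its 3 listed starts, of which 2 overlap in the window shown, and 2 matches before another.

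Libraries held 259885034 to 356831838 counts in the 200 nM experiment, 78562645 to 112813820 at 50 nM, 74978304 to 111134596 with siRNA and 75338390 to 109589376 in the tumours. All 10 members passed the filter on low counts in every table, with a lowest count of 100 in a library. TRA2B, the targeted gene, fell with ASO-1570 in both lines, by 0.87 and 0.76 on the log2 scale in MDA-MB-231 (200 and 50 nM) and by 1.03 and 1.13 in U87MG, and by 3.11 and 2.83 with siRNA in the same order of lines (edgeR quasi-likelihood test, adjusted p at most 3.23e-05). In the tumours TRA2B stood at 114, 77.7, 95.2, 105 and 80.9 CPM with ASO-1570 and at 122, 78.3, 112, 130 and 85.7 CPM with ASO-CTL, a log2 change of -0.16 (SE 0.202, adjusted p = 0.707). Directions in the tumours below are therefore given for the tumours labelled ASO-1570. Because bulk RNA was measured, fewer cells of a type and less RNA per cell cannot be told apart.

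Among the members, NFKBIA and RELA had the highest counts per kilobase of exon in the control groups of MDA-MB-231 and NFKBIA and NFKBIZ in those of U87MG. In the 200 nM controls of MDA-MB-231, RELA stood at 23.2 ± 0.381 CPM per kilobase (SD, n = 3), NFKBIA at 18.9 ± 1.14, NFKB2 at 15.1 ± 0.55 and NFKBIE at 14 ± 0.462, and REL was lowest at 0.957 ± 0.115. The ranges of RELA, NFKBIA, NFKB2 and NFKBIE did not overlap one another. NFKB1 (9.9), RELB (7.37), BIRC3 (5.9), TNFAIP3 (1.74) and NFKBIZ (1.36) lay between. In the 200 nM controls of U87MG, NFKBIA stood at 36.8 ± 1.47 CPM per kilobase and NFKBIZ at 28.7 ± 1.02, above NFKB2 and RELA, both at 20.3. Levels are not compared between tables. REL, for example, stood at 11.2 to 14.2 CPM in the 200 nM controls of MDA-MB-231 and at 23.6 to 26.5 CPM in the 50 nM controls, a gap between experiments that the tests within a table do not touch.

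NFKBIZ, a nuclear IkB relative that tunes transcription of inflammatory genes, differed most between the lines. In the 200 nM controls it stood at 8.23, 8.56 and 7.36 CPM in MDA-MB-231 and at 163, 175 and 170 CPM in U87MG, 21.0-fold lower in MDA-MB-231 (log2 difference -4.39, SE 0.28, edgeR adjusted p = 2.1e-08). The same difference was -3.86 among the 50 nM controls and -3.11 among the siRNA controls. TNFAIP3, which encodes the ubiquitin-editing inhibitor A20, was 4.9-fold lower in MDA-MB-231 at 200 nM, and RELB and NFKBIA were 2.27-fold and 1.95-fold lower. NFKBIE, a cytoplasmic IkB inhibitor, was 2.65-fold higher there. Of the 10 members, 7, 7 and 9 differed between the lines in the 200 nM, 50 nM and siRNA controls, beside 68.1%, 73% and 77.3% of all genes tested, shares close to those of the members.

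Most members rose with ASO-1570 in MDA-MB-231, NFKBIA, RELB and TNFAIP3 by the most at 200 nM. At that dose, 7 of the 10 members rose and 1 fell (edgeR, adjusted p below 0.05), where 25.2% of all 26159 genes tested were called, 11.7% higher and 13.6% lower. At 50 nM, 6 rose and 1 fell, where 23.3% of all genes were called, 10.1% higher and 13.2% lower. The treated and control libraries did not overlap for 7 members that were higher and 1 that was lower at 200 nM, beside 19% and 20.4% of all genes. At 50 nM this held for 4 and 1 members, beside 19.8% and 21.4%. The median log2 change of the 10 members was 0.75 at 200 nM and 0.54 at 50 nM, beside 0.0 and 0.01 over all genes. These counts and medians describe the group and were not tested as a set.

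**Figure D1:**
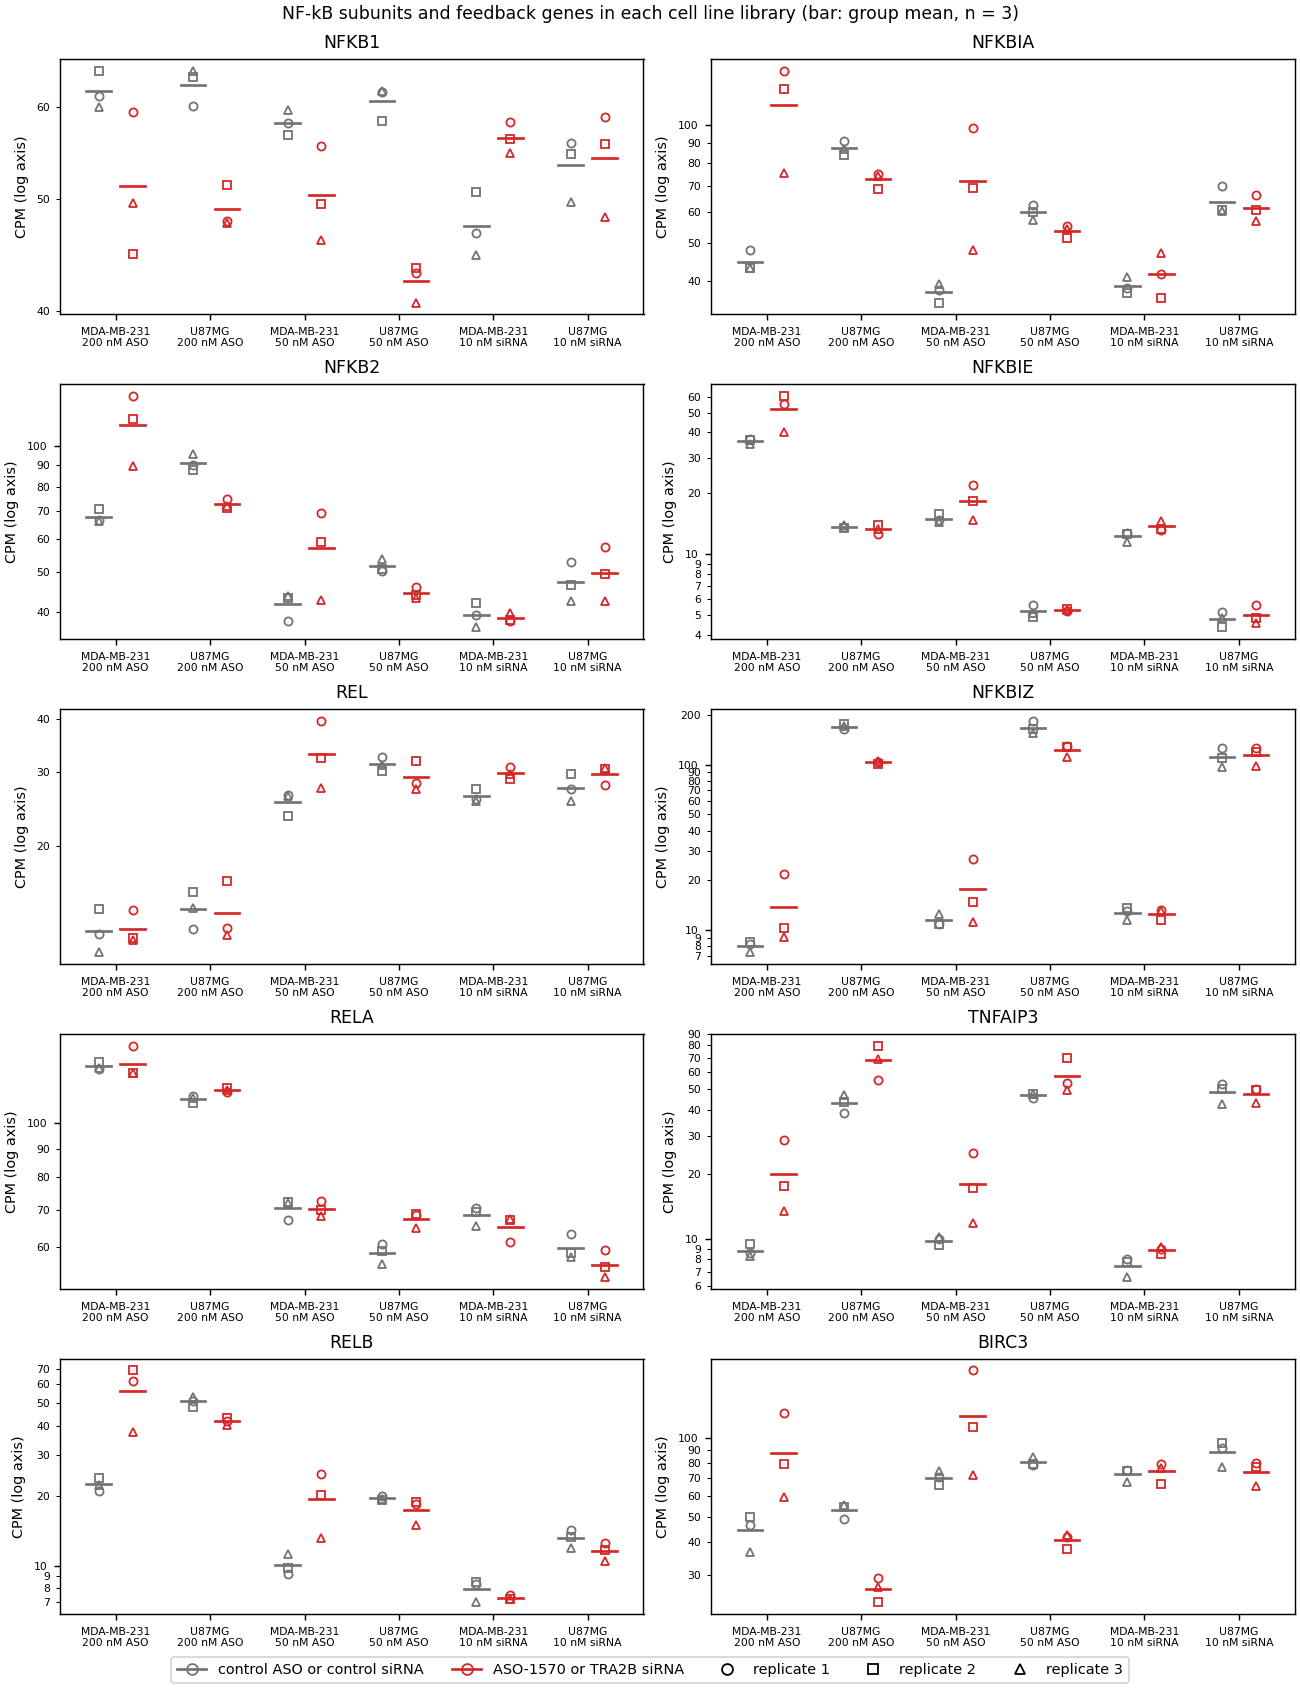
CPM of each of the 10 members on a log axis in every cell line library, with ASO-CTL or siRNA-CTL beside the matching treatment, points for libraries and bars for the mean. NFKBIA, RELB and NFKB2 in MDA-MB-231 with 200 nM ASO-1570 lie above all of their controls, and with siRNA the groups overlap or lie close together.

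NFKBIA encodes IkB-alpha, the inhibitor that newly active NF-kB restores soonest. At 200 nM it stood at 138, 124 and 75.5 CPM with ASO-1570 and at 48.0, 43.3 and 43.3 CPM with ASO-CTL. All 3 treated libraries lay above the controls, a log2 change of 1.33 (SE 0.165, 2.51-fold, edgeR adjusted p = 0.000221). In the 50 nM experiment it stood at 98.6, 69.2 and 48.2 CPM against 38.0, 35.3 and 39.3 CPM, again without overlap, a log2 change of 0.94 (SE 0.184, adjusted p = 0.00354).

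RELB, the subunit that pairs with p52 in the slower non-canonical branch, moved to the same extent. At 200 nM it stood at 61.9, 68.9 and 37.6 CPM against 21.0, 23.8 and 22.3 CPM (log2 change 1.33, SE 0.167, adjusted p = 0.000224). With 50 nM it stood at 24.8, 20.2 and 13.2 CPM against 9.27, 9.82 and 11.2 CPM (log2 change 0.94, SE 0.182, adjusted p = 0.00325). The groups did not overlap at either dose.

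NFKB2, the precursor of p52, stood at 132, 116 and 89.5 CPM against 66.5, 70.5 and 66.0 CPM at 200 nM, a log2 change of 0.73 (SE 0.111, adjusted p = 0.000684). At 50 nM its treated values were 69.3, 58.8 and 42.9 CPM and its controls 38.2, 43.4 and 43.8 CPM. There the groups overlapped, since the lowest treated library lay below 2 of the 3 controls, and the log2 change was 0.45 (adjusted p = 0.0285).

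TNFAIP3 stood at 28.8, 17.6 and 13.5 CPM with 200 nM ASO-1570 and at 8.57, 9.45 and 8.34 CPM in the controls, a log2 change of 1.18 (SE 0.224, adjusted p = 0.00269). At 50 nM it stood at 25.2, 17.2 and 11.8 CPM against 9.92, 9.3 and 10.2 CPM (log2 change 0.88, adjusted p = 0.0121). Every treated library exceeded every control at both doses. TNFAIP3 overlaps an antisense gene, and since the counting strand is not given in the sources used here, reads of the pair cannot be told apart.

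BIRC3 encodes cIAP2, a ubiquitin ligase of TNF receptor complexes. It stood at 124, 79.4 and 59.6 CPM against 46.5, 49.9 and 36.7 CPM at 200 nM, without overlap (log2 change 0.98, SE 0.21, adjusted p = 0.00544). In the 50 nM experiment it stood at 180, 110 and 71.8 CPM against 70.5, 66.1 and 74.3 CPM, and the lowest treated library lay among the controls (log2 change 0.78, adjusted p = 0.0323).

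NFKBIE and NFKBIZ passed the test at 200 nM and not at 50 nM. NFKBIE stood at 55.0, 60.7 and 40 CPM against 37.2, 36.6 and 34.9 CPM (log2 change 0.52, SE 0.118, adjusted p = 0.00743), and its change at 50 nM was 0.29 (adjusted p = 0.107). NFKBIZ stood at 21.9, 10.3 and 9.1 CPM against 8.23, 8.56 and 7.36 CPM (log2 change 0.77, SE 0.247, adjusted p = 0.0383). Treated library 1 carried most of the NFKBIZ change, and without it the log2 change was 0.26 (adjusted p = 0.0429). At 50 nM the change of NFKBIZ was 0.62 (adjusted p = 0.0828). The test between the doses called neither gene.

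The remaining subunits behaved otherwise. NFKB1, the precursor of p50, stood at 59.4, 44.8 and 49.6 CPM against 61.3, 64.5 and 60.0 CPM at 200 nM, lower in all 3 treated libraries (log2 change -0.27, SE 0.09, adjusted p = 0.0437). With 50 nM it stood at 55.5, 49.5 and 46.1 CPM against 58.1, 56.8 and 59.6 CPM (log2 change -0.21, adjusted p = 0.0337). RELA, the main activating subunit p65, stood at 138, 123 and 123 CPM against 125, 129 and 126 CPM at 200 nM, and its log2 change was 0.02 (SE 0.058, adjusted p = 0.893). REL had a log2 change of 0.02 at 200 nM (SE 0.133, adjusted p = 0.977). At 50 nM REL stood at 39.7, 32.3 and 27.5 CPM against 26.5, 23.6 and 26.3 CPM and rose by 0.38 (adjusted p = 0.0305). REL and RELA share sequence with other annotated genes (2 on the same strand, and 1 on the opposite strand), which leaves their counts uncertain to that extent.

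RELB, NFKBIA and TNFAIP3 kept their calls at both doses in all 11 alternatives of the analysis, and NFKB2, NFKBIE and BIRC3 did so at 200 nM. NFKB1 at 200 nM kept its call in 3 of 11 and NFKBIZ in 5 of 11 (adjusted p up to 0.143 and 0.115). At 50 nM, NFKB2, REL, BIRC3 and NFKB1 each lost the call in most alternatives. Leaving out 1 library at 50 nM gave 4 calls without treated library 1, 3 without treated library 2 or any of the controls and 8 without treated library 3.

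The size of the response differed between the treated libraries of a group, and the members moved together in this. Each library was divided by the mean of its controls. At 200 nM, of the 7 members that rose, library 1 was highest for 5 and library 2 for 2, and library 3 was lowest for all 7. Their median ratio to the controls was 2.77 in library 1, 1.79 in library 2 and 1.34 in library 3. At 50 nM, of the 6 members that rose, library 1 was highest and library 3 lowest for all 6, with median ratios of 2.51, 1.66 and 1.14. The numbers name libraries and have no order. TRA2B was highest in library 3 of each group, at 104, 106 and 116 CPM in libraries 1, 2 and 3 at 200 nM and 119, 122 and 147 CPM at 50 nM. Whether the level of TRA2B had a part in the size of the response was not tested.

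**Figure D2:**
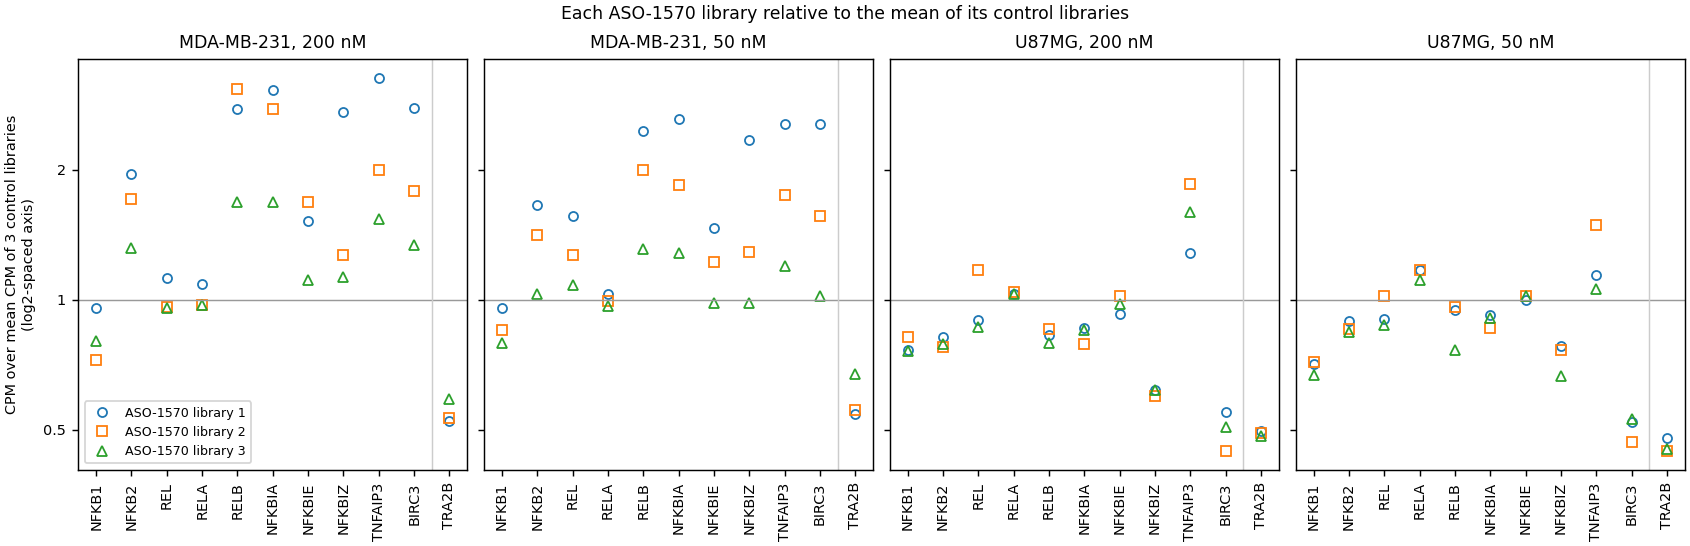
Ratio of each treated library to the mean of its controls on a log axis for the 10 members and TRA2B in both lines at 200 and 50 nM, with 1 point per library and a line at 1. In MDA-MB-231 the members that rose are spread by library, library 1 highest for most and library 3 lowest, and in U87MG the 3 libraries lie closer together for most members, TNFAIP3 aside.

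In U87MG more members fell than rose with the same oligonucleotide. The members were called about as often as all genes at 200 nM and less often at 50 nM. At 200 nM, 4 fell and 1 rose, where 49.7% of all genes were called (25.8% higher, 23.9% lower). At 50 nM, 2 fell and 1 rose, where 54.6% of all genes were called (27.9% higher, 26.7% lower). In both directions together 5 and 3 of the 10 members were called, beside 49.7% and 54.6%, while the 4 that fell at 200 nM stand beside 23.9%. The median log2 change of the members was -0.27 at 200 nM and -0.16 at 50 nM, beside 0.02 and 0.0 over all genes. At both doses 2 members were higher and 6 lower without overlap of the groups, beside 34.1% and 32.6% of all genes at 200 nM and 31.4% and 30.6% at 50 nM.

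BIRC3 fell most in U87MG. At 200 nM it stood at 29.1, 23.6 and 26.9 CPM against 49.1, 54.5 and 55.3 CPM (log2 change -1.0, SE 0.21, edgeR adjusted p = 0.00181). At 50 nM it stood at 42.0, 37.7 and 42.6 CPM against 78.5, 79.5 and 84.0 CPM (log2 change -0.98, SE 0.236, adjusted p = 0.00405). Its treated libraries were at about the same level within each dose and lay below every control.

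NFKB1 fell at both doses as it did in MDA-MB-231. It stood at 47.9, 51.4 and 47.7 CPM against 60.1, 63.7 and 64.4 CPM at 200 nM (log2 change -0.36, SE 0.09, adjusted p = 0.00563). In the 50 nM experiment it stood at 43.2, 43.6 and 40.7 CPM against 61.8, 58.4 and 61.9 CPM (log2 change -0.52, SE 0.063, adjusted p = 3.73e-05). BIRC3 and NFKB1 kept their calls at both doses in all 11 alternatives.

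NFKBIZ stood at 104, 101 and 105 CPM against 163, 175 and 170 CPM at 200 nM (log2 change -0.71, SE 0.243, adjusted p = 0.0284). With 50 nM it stood at 130, 128 and 111 CPM against 184, 163 and 154 CPM, also without overlap, but its change of -0.44 did not pass the test (adjusted p = 0.121). NFKB2 stood at 74.8, 70.9 and 71.9 CPM against 90.3, 87.5 and 95.9 CPM at 200 nM (log2 change -0.33, adjusted p = 0.0249). Its change at 50 nM was -0.21 (adjusted p = 0.191).

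TNFAIP3 rose in U87MG at 200 nM, where BIRC3 and NFKBIZ fell. At 200 nM it stood at 55.1, 79.6 and 69.0 CPM against 38.5, 43.6 and 47.0 CPM and rose by 0.66 on the log2 scale (SE 0.22, adjusted p = 0.0255). At 50 nM it stood at 53.3, 69.4 and 49.3 CPM against 45.3, 47.4 and 47.4 CPM, above the controls in all 3 libraries, with a change of 0.3 that did not pass the test (adjusted p = 0.256). RELA stood at 68.5, 68.9 and 64.9 CPM against 60.7, 59.1 and 56.0 CPM at 50 nM and rose by 0.2 (SE 0.048, adjusted p = 0.00383). At 200 nM the change of RELA was 0.05 (adjusted p = 0.516).

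RELB and NFKBIA, the most responsive members in MDA-MB-231, had log2 changes of -0.28 (adjusted p = 0.183) and -0.26 (adjusted p = 0.202) in U87MG at 200 nM. All treated libraries of both lay below the controls, at 42.0, 43.3 and 40.3 CPM against 51.2, 48.1 and 52.9 CPM for RELB and at 75.1, 68.9 and 74.4 CPM against 91.1, 84.2 and 86.9 CPM for NFKBIA. The fit shares its estimate of spread with the MDA-MB-231 libraries. With only the U87MG groups in the fit, both fell (adjusted p = 0.0013 and 0.00131), and the members called were 1 up and 6 down. At 200 nM, leaving out 1 library of the U87MG comparison left 2 to 4 members called. There were 2 calls without treated library 2, treated library 3 or control library 1, 3 without control library 2 and 4 without the others. TNFAIP3 lost its call in 5 of these 6 fits (adjusted p = 0.0186 without treated library 1, 0.0623 to 0.108 without another), and NFKBIZ did so in 5 as well (0.0351 without control library 3, 0.0528 to 0.0806 without another).

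The responses of the lines were compared by the difference of their log2 changes, MDA-MB-231 minus U87MG. At 200 nM, 6 members responded higher in MDA-MB-231, where 23.6% of all genes differed, 11.5% in this direction and 12.1% in the other. They were BIRC3 (difference 1.98, SE 0.297, edgeR adjusted p = 0.000874), RELB (1.6, SE 0.233, 0.000726), NFKBIA (1.59, SE 0.231, 0.000731), NFKBIZ (1.48, SE 0.347, 0.00919), NFKB2 (1.06, SE 0.156, 0.000763) and NFKBIE (0.56, SE 0.167, 0.0311). At 50 nM, 7 members responded higher in MDA-MB-231 and 1 lower, where 28.2% of all genes differed (14.3% and 13.9%). BIRC3 (1.76), RELB (1.11), NFKBIA (1.1), NFKBIZ (1.07) and NFKB2 (0.66) were again among them, with REL (0.48), NFKB1 (0.31) and, in the other direction, RELA (-0.21). TNFAIP3 did not differ between the lines by the test at either dose (0.53, adjusted p = 0.251, and 0.58, adjusted p = 0.172). NFKB1 fell in both lines, and its difference at 200 nM was 0.08 (SE 0.127, adjusted p = 0.703). When 1 library was left out at 50 nM, 4 to 9 members differed, with 4 without control library 2 of MDA-MB-231 and 5 without its control library 1, treated library 1 of U87MG or any U87MG control. Over all alternatives the difference kept its call in 6 of 14 for NFKBIE at 200 nM, and at 50 nM in 3 of 14 for RELA, 4 of 14 for REL, 9 of 14 for NFKBIZ and 11 of 14 for NFKB1. With siRNA no member differed between the lines, where 0.527% of all genes did, and 1 member, NFKB1, had an unadjusted edgeR p below 0.05.

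**Figure D3:**
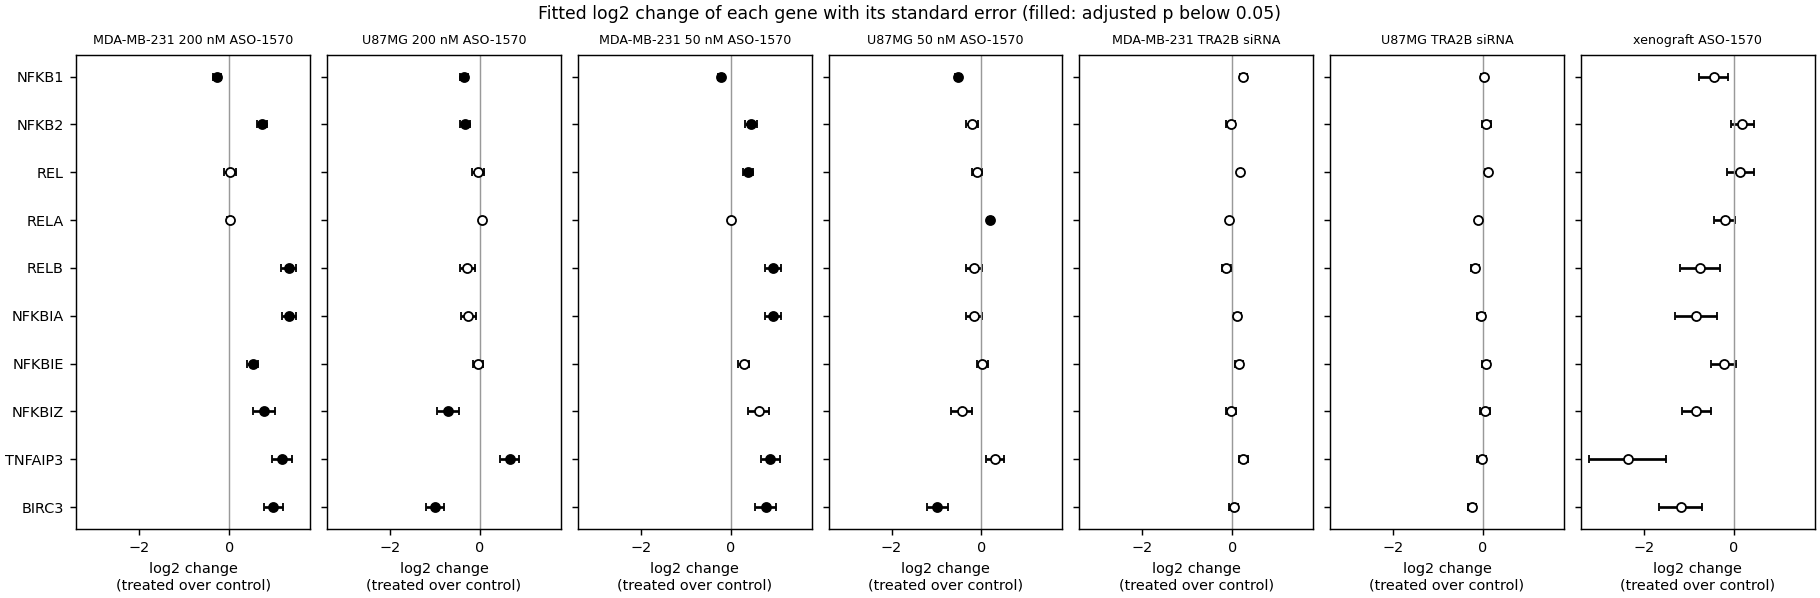
Log2 change of each member, treated against control, in both lines with 200 nM and 50 nM ASO-1570 and with siRNA, and in the tumours, with bars for 1 standard error. BIRC3, RELB, NFKBIA and NFKB2 lie above 0 in MDA-MB-231 and below 0 in U87MG with ASO-1570, TNFAIP3 lies above 0 in both, and the siRNA values lie near 0.

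Marker genes of other cell types also moved with ASO-1570. Glia and neural markers summed to 13.5 to 18.4 CPM with 200 nM ASO-1570 and to 23.3 to 29 CPM with ASO-CTL in MDA-MB-231, and to 13.5 to 17.9 against 33.6 to 33.7 CPM in U87MG. Leukocyte markers summed to 57.9 to 65.6 against 75.5 to 80.1 CPM in MDA-MB-231 and to 403 to 435 against 530 to 558 CPM in U87MG. CD68 made up most of these sums, at 395 to 426 against 521 to 550 CPM in U87MG, while CD14 there stood at 1.81 to 3.0 against 0.126 to 0.2 CPM and ITGAM at 0.616 to 0.904 against 0.112 to 0.185 CPM. CD3E was at or near 0 in both lines. Fibroblast markers summed to 64.5 to 89.3 against 56.8 to 61.6 CPM in MDA-MB-231, with LUM at 12.8 to 14.1 against 1.22 to 1.38 CPM. In U87MG they summed to 342 to 547 against 538 to 679 CPM. COL1A1 (103 to 184 against 184 to 248 CPM) and COL1A2 (196 to 309 against 304 to 375 CPM) made up most of these sums. DCN and LUM were higher there, at 12.9 to 15.4 against 5.28 to 6.3 CPM and at 8.89 to 11.1 against 2.98 to 3.23 CPM. Breast epithelial markers of MDA-MB-231 summed to 2360 to 3260 CPM with 200 nM ASO-1570 and to 2020 to 2240 CPM with ASO-CTL. KRT8 (1140 to 1530 against 922 to 1010 CPM) and KRT18 (669 to 928 against 519 to 595 CPM) were higher. The groups overlapped for KRT19 (507 to 747 against 529 to 593 CPM) and EPCAM (24.9 to 31.4 against 29.9 to 33.2 CPM). The part of these shifts in the results for the members was not tested.

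The doses did not differ by the test for any member. Of 10 members, 0 were called in either line, where 0.158% of all genes differed between the doses in MDA-MB-231 and 1.66% in U87MG. In MDA-MB-231 the change at 200 nM exceeded that at 50 nM by 0.42 for NFKBIA (SE 0.238, adjusted p = 0.495) and by 0.42 for RELB (SE 0.235, adjusted p = 0.49). At an unadjusted edgeR p below 0.05 there was 1 member in MDA-MB-231, REL, and 0 in U87MG. The doses were run as separate experiments, so dose and experiment cannot be told apart in this difference.

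The siRNA lowered TRA2B further than the oligonucleotide and changed no member by the test. In both lines 0 of 10 members were called, where 7.24% of all genes were called in MDA-MB-231 and 4.2% in U87MG. At an unadjusted p below 0.05 there were 3 members in MDA-MB-231 (NFKB1, REL and TNFAIP3) and 1 in U87MG (BIRC3), and DESeq2 called NFKB1 in MDA-MB-231 (adjusted p = 0.0411). In MDA-MB-231 the groups did not overlap for 4 members, all higher with siRNA-TRA2B, where 13.4% of all genes were higher and 13.7% lower without overlap. NFKBIA stood at 41.8, 36.2 and 47.1 CPM with siRNA-TRA2B and at 38.4, 37.3 and 40.9 CPM with siRNA-CTL in MDA-MB-231, and RELB stood at 7.48, 7.18 and 7.17 CPM against 8.34, 8.52 and 6.97 CPM. Both pairs of groups overlapped. NFKB1 stood at 58.2, 56.3 and 54.8 CPM against 46.7, 50.7 and 44.7 CPM, higher in all 3 libraries, with a log2 change of 0.25 that missed the threshold (SE 0.072, adjusted p = 0.0584). BIRC3 in U87MG stood at 79.8, 77.2 and 65.6 CPM against 91.2, 95 and 77.3 CPM (log2 change -0.24, SE 0.093, adjusted p = 0.183).

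The difference between the response to 200 nM ASO-1570 and that to siRNA was tested directly. In MDA-MB-231, 5 members responded higher to the oligonucleotide and 1 lower, where 21.4% of all genes differed, 9.27% higher and 12.1% lower. They were RELB (difference in log2 change 1.48, SE 0.239, edgeR adjusted p = 4.37e-05), NFKBIA (1.25, SE 0.239, 0.000326), BIRC3 (0.97, SE 0.296, 0.0186), TNFAIP3 (0.96, SE 0.294, 0.0189) and NFKB2 (0.78, SE 0.176, 0.00166), and NFKB1 responded lower (-0.51, SE 0.109, 0.00118). In U87MG, NFKB1 (-0.37, adjusted p = 0.007) and BIRC3 (-0.75, adjusted p = 0.0442) responded lower, where 40.4% of all genes differed, 19.1% higher and 21.3% lower, and 1 to 4 members were called when 1 library was left out. There was 1 call without any of the ASO-CTL libraries, ASO-1570 library 2 or 3, siRNA-CTL library 2 or siRNA-TRA2B library 2, and there were 4 without siRNA-TRA2B library 3. The agents came from separate experiments with their own controls, so agent and experiment cannot be told apart here.

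In the xenograft tumours no member was called by edgeR, nor was any of the 23812 genes tested (0%), although 2053 had an unadjusted p below 0.05. At an unadjusted p below 0.05 there were 3 members, NFKBIZ, TNFAIP3 and BIRC3, all lower in the tumours labelled ASO-1570, and the median log2 change of the members was -0.6, beside 0.01 over all genes. The groups overlapped for all 10 members, and over all genes 0.26% were higher and 0.357% lower without overlap. The tumours hold mouse cells as well as human ones, and only human genes were counted.

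TNFAIP3 stood at 8.33, 9.97, 14.7, 6.77 and 9.31 CPM in the tumours labelled ASO-1570 and at 8.03, 9.1, 16.4, 202 and 16.3 CPM in the controls. Control tumour 4 was 12.3 times the next highest tumour, and the other 9 overlapped. The log2 change over all tumours was -2.36 (SE 0.862, adjusted p = 0.487), and without control tumour 4 it was -0.35.

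The same tumour stood apart for other feedback genes. NFKBIA stood at 25.0, 22.4, 40.2, 30.0 and 23.4 CPM in the tumours labelled ASO-1570 and at 25.1, 22.5, 31.1, 135 and 37.9 CPM in the controls, a log2 change of -0.84 with control tumour 4 and of -0.05 without it. RELB stood at 2.7, 2.44, 3.85, 2.4 and 3.36 CPM against 3.05, 2.56, 2.86, 12.6 and 3.93 CPM (log2 change -0.76 with and -0.08 without that tumour). BIRC3 stood at 3.47, 4.71, 7.15, 3.68 and 3.79 CPM against 4.62, 4.71, 8.33, 26.6 and 7.37 CPM (log2 change -1.18 with and -0.46 without it). In all 3 genes control tumour 4 was over 3 times the next highest tumour, at 3.36, 3.21 and 3.19 times.

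**Figure D4:**
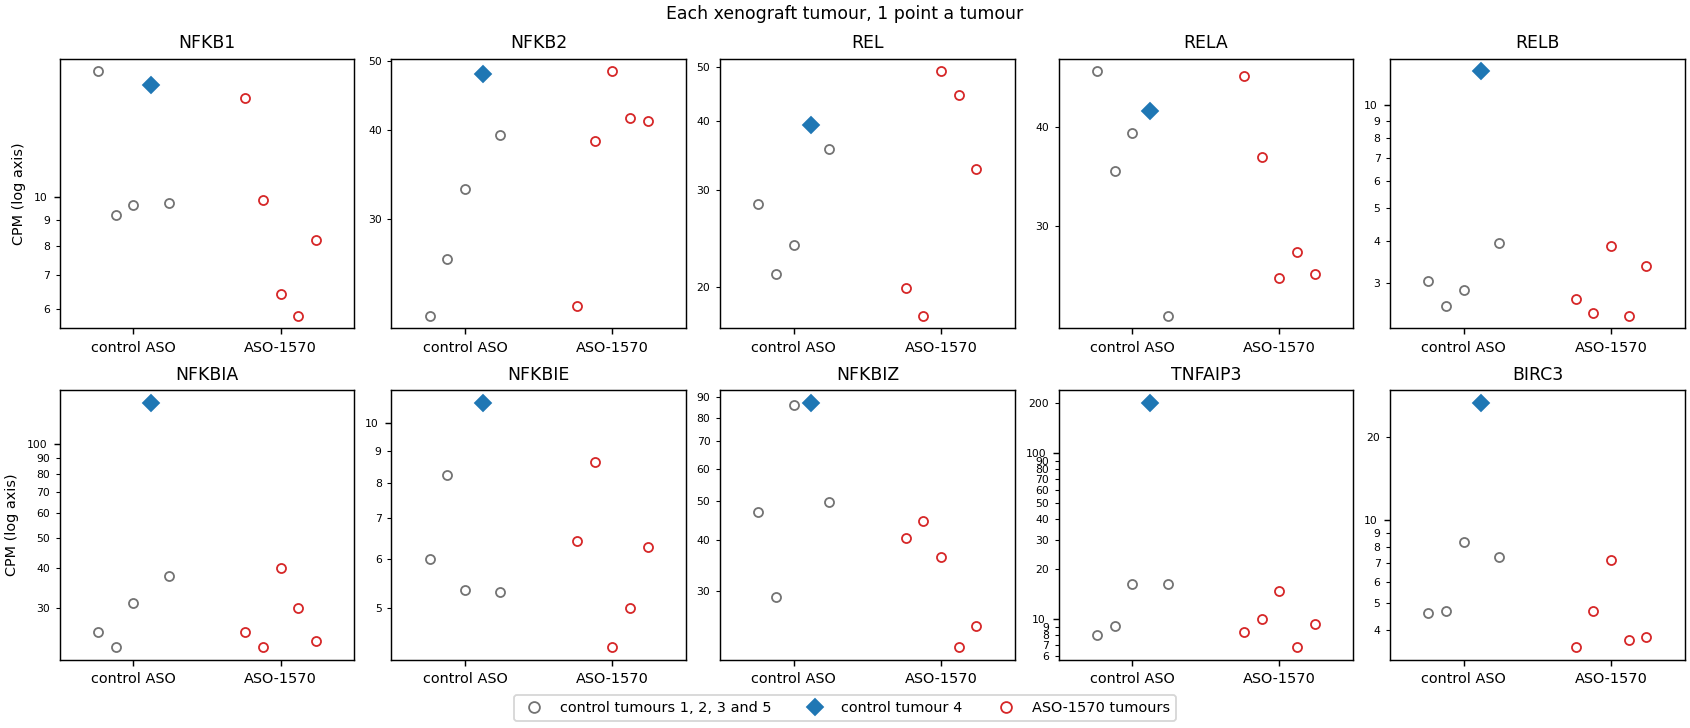
CPM of each member on a log axis in the 5 tumours labelled ASO-1570 and the 5 control tumours, with control tumour 4 marked. Control tumour 4 lies above all other tumours for TNFAIP3, NFKBIA, RELB and BIRC3, and the subunits NFKB1, NFKB2, REL and RELA overlap between the groups.

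NFKBIZ did not follow this pattern. It stood at 40.5, 44.6, 36.3, 21.8 and 24.6 CPM in the tumours labelled ASO-1570 and at 46.9, 29, 86.2, 87.2 and 49.6 CPM in the controls. Control tumours 3 and 4 were at about the same level, and without tumour 4 the log2 change was -0.66 in place of -0.83 (adjusted p = 0.705 and 0.487). The subunits varied less. NFKB2 ranged from 22.7 to 48.3 CPM in the tumours labelled ASO-1570 and from 22.0 to 47.9 CPM in the controls, RELA from 25.8 to 46.5 and from 23.1 to 47.1 CPM, REL from 17.7 to 49.2 and from 21.1 to 39.3 CPM, and NFKB1 from 5.81 to 15.7 and from 9.19 to 17.7 CPM. NFKBIE ranged from 4.31 to 8.66 and from 5.31 to 10.8 CPM. None of these pairs of ranges was separate.

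Of the 10 members, 6 were highest in control tumour 4, where 8.31% of 23978 genes were. So were 11 of 23 NF-kB target genes and 23 of the 73 genes of all pathway lists that matched an identifier. TNF, the cytokine that activates the canonical branch, stood at 18.7 CPM there and at no more than 1.1 CPM in the other 9 tumours. CCL20, a chemokine gene, stood at 58.3 CPM there and at 0.288 to 2.26 CPM elsewhere, and CXCL8 at 59.9 CPM against 0.721 to 8.39 CPM. Human leukocyte markers summed to 7.24 CPM in that tumour and to 6.41 to 16.7 CPM in the others, and CD3E, a T cell marker, was at 0 in every tumour. Only human genes were counted, so these markers do not describe leukocytes of the mouse. Mitochondrial genes took 17.65% to 75.31% of counts in the tumours, and their part in the levels of the members was not tested beyond a fit with this share as a covariate, in which no member was called.

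More splicing events of the members were called in U87MG than in MDA-MB-231, as was the case over all events of the tables, and the difference between the lines was not tested. PSI, the share of transcripts that include an exon, was given per event with no read counts, so the depth behind each value is unknown. With 200 nM ASO-1570, 15 of 57 tested events of the members were called in U87MG (26.3%), where 19.5% of all 82102 events were called, and 12 of the 15 were lower. At 50 nM, 9 of 46 were called (19.6%), where 13.7% of all events were, and 8 of the 9 were lower. In MDA-MB-231, 1 of 28 events was called at 200 nM, where 1.42% of all were, and 0 of 33 at 50 nM, where 0.199% of all were. With siRNA in MDA-MB-231 and U87MG and in the tumours limma called no event at all (0 of 21, 0 of 27 and 0 of 33 member events, and 0% of all), with 2, 0 and 0 member events and 3676, 3417 and 2769 of all events at an unadjusted p below 0.05.

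NFKB1 included a glycine-rich coding exon less often. The 144-base exon at chr4:102593425-102593568 (plus strand, GRCh38) is printed below with the letters AGAA, a motif that TRA2B is known to favour, in capitals. Its length is a multiple of 3, so skipping it keeps the reading frame, and 18 of its 47 whole codons are GGN, which encodes glycine. The glycine-rich region of the NFKB1 precursor is known to guide the processing of p105 to p50.
NFKB1 exon: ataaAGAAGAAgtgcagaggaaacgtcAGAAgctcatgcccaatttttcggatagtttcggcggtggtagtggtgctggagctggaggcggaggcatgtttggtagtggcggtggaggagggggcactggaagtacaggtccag
AGAA occurs 3 times, overlaps counted, and 16.7% of 20547 internal coding exons of similar length held as many or more. In U87MG every ASO-CTL library had a PSI of 1.0 at both doses. With ASO-1570 the exon had a PSI of 0.678, 0.542 and 0.682 at 200 nM (difference -0.366, limma adjusted p = 0.00389) and of 0.776, 0.659 and 0.806 at 50 nM (difference -0.253, adjusted p = 0.0159). In MDA-MB-231 the treated libraries stood at 0.849, 0.902 and 0.944 at 200 nM against 1.0, 0.994 and 1.0, and at 0.878, 0.94 and 0.981 at 50 nM against 1.0 in all controls. There the groups did not overlap either, but the differences of -0.1 and -0.067 did not pass the test (adjusted p = 0.166 and 0.441). This event was not listed with siRNA or in the tumours and has no value there. Whether TRA2B acts on this exon was not tested.

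**Figure D5:**
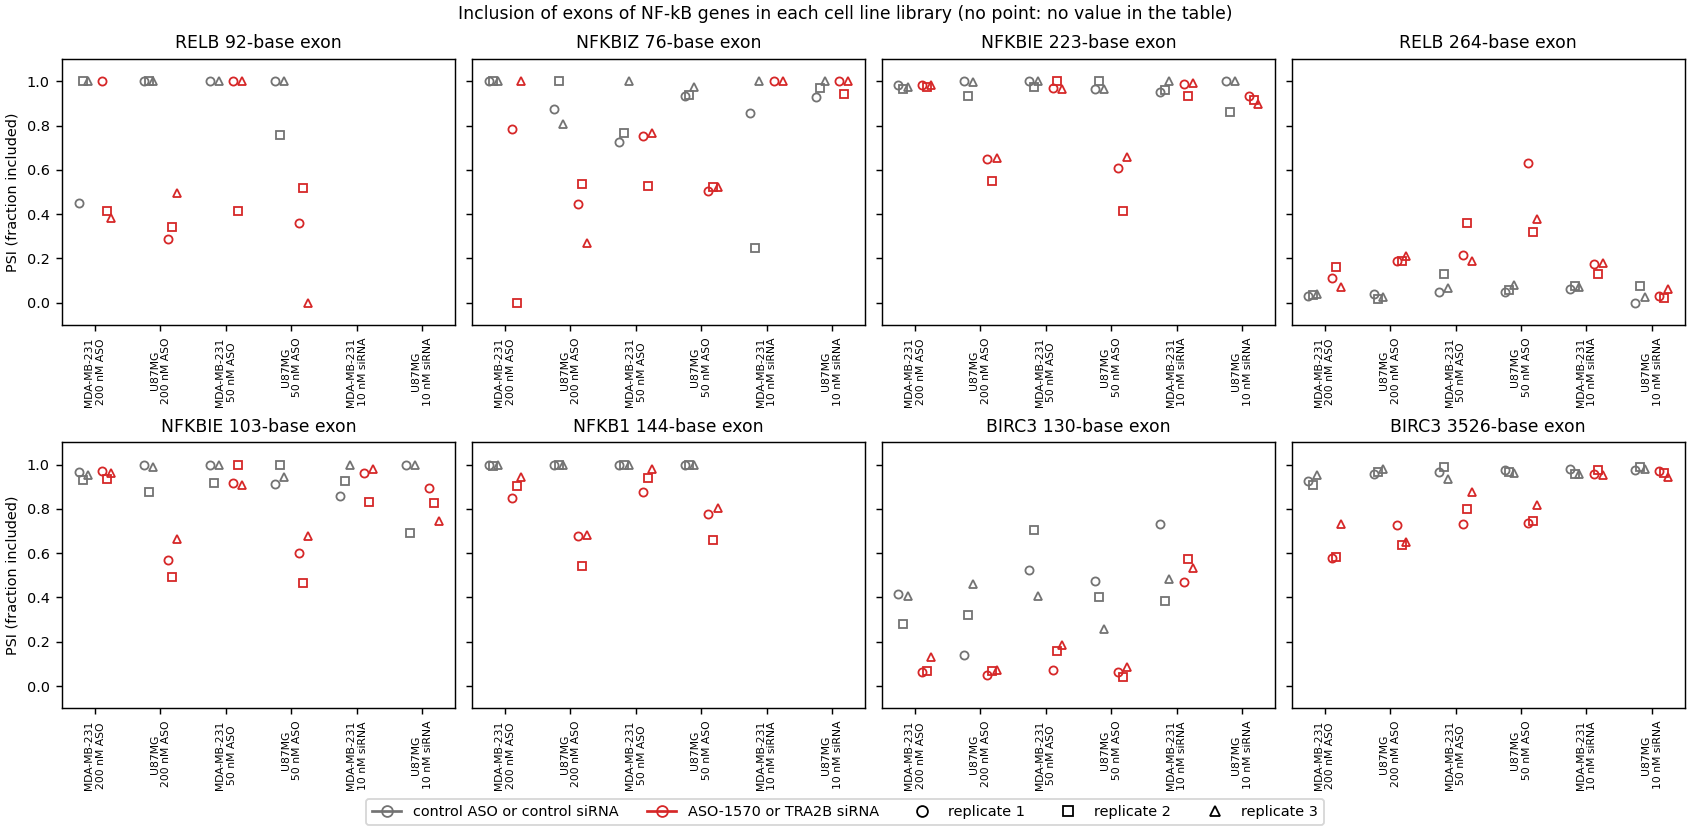
PSI from 0 to 1 of named exons of NFKB1, RELB, NFKBIE, BIRC3 and NFKBIZ in each cell line library, controls in grey and treated libraries in red. The NFKBIE exons stand at 0.413 to 0.677 in U87MG with ASO-1570 and at 0.91 or above in MDA-MB-231 with ASO-1570, and the NFKB1 exon is at 1.0 in all U87MG controls.

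NFKBIE skipped coding exons in U87MG. Its 223-base exon at chr6:44261626-44261848 (minus strand) is shown because its inclusion moved in one line and hardly at all in the other. It holds no AGAA, and its length is not a multiple of 3, so that skipping it alone shifts the reading frame.
NFKBIE exon: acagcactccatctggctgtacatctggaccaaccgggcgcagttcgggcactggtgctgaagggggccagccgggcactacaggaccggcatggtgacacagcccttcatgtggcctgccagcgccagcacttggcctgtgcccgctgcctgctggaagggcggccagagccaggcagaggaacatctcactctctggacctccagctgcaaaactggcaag
Measured against the first coding exon upstream (chr6:44264982-44265593), it had a PSI of 0.647, 0.549 and 0.653 in U87MG with 200 nM ASO-1570 and of 1.0, 0.934 and 0.996 in the controls (difference -0.36, limma adjusted p = 0.00318). At 50 nM it had 0.607, 0.413 and 0.659 against 0.967, 1.0 and 0.965 (difference -0.418, adjusted p = 0.0148). With siRNA-TRA2B in U87MG it differed by -0.037 (limma adjusted p = 0.783). All MDA-MB-231 libraries of both doses lay between 0.967 and 1.0, within the minimum range set for a test, and the difference between the lines was not tested. Measured against the nearer upstream exon of 103 bases (chr6:44262560-44262662), the same exon differed by -0.23 and -0.281 in U87MG (adjusted p = 0.00608 and 0.0488). The 103-base exon itself, measured against an exon beyond the 223-base one, had a mean PSI of 0.574 ± 0.085 in U87MG at 200 nM against 0.956 ± 0.068 (SD, n = 3, without overlap), a difference of -0.381 (limma adjusted p = 0.00752) and differed by -0.371 at 50 nM (adjusted p = 0.0153). These 3 events share exons and are not independent of each other. NFKBIE counts did not change by the test in U87MG, with log2 changes of -0.04 and 0.02.

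RELB had 6 of its 12 tested events called in U87MG at 200 nM, the largest number of any member, where 19.5% of all events were called. NFKBIE had 3 of its 4 called. The called RELB events share exons and are not independent of each other. Its 92-base coding exon at chr19:45025329-45025420 (plus strand) is printed because the largest PSI difference among the members was measured on it.
RELB exon: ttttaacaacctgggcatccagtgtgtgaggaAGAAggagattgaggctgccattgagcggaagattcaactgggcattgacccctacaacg
It holds AGAA 1 time, and 54.8% of internal coding exons of similar length hold at least as many. Measured against a distant upstream exon (chr19:45011936-45012276), its PSI in U87MG was 0.289, 0.341 and 0.495 with 200 nM ASO-1570 and 1.0 in all 3 controls (difference -0.625, limma adjusted p = 0.00185). At 50 nM it was 0.358, 0.52 and 0.0 against 1.0, 0.756 and 1.0 (difference -0.626, adjusted p = 0.0385). Measured against a nearer upstream exon (chr19:45021830-45022210), the same exon differed in U87MG by -0.09 at 200 nM and by -0.034 at 50 nM, neither a call. The size of the difference on this exon thus depended on the neighbour it was measured against. In MDA-MB-231 at 200 nM the values were 1.0, 0.414 and 0.382 against 0.452, 1.0 and 1.0 and overlapped. The event with the distant exon was not listed with siRNA or in the tumours.

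RELB also took up an exon of 264 bases (chr19:45008458-45008721) that the annotation places only in a transcript of the nonsense-mediated decay class. In U87MG its PSI was 0.188, 0.188 and 0.212 with 200 nM ASO-1570 against 0.041, 0.018 and 0.026 (difference 0.168, adjusted p = 0.00169), and 0.631, 0.319 and 0.378 with 50 nM against 0.048, 0.056 and 0.079 (difference 0.382, adjusted p = 0.0301). The MDA-MB-231 values were 0.113, 0.161 and 0.071 against 0.032, 0.036 and 0.038 at 200 nM and 0.217, 0.359 and 0.186 against 0.049, 0.129 and 0.064 at 50 nM. With siRNA-TRA2B in that line it was 0.173, 0.131 and 0.181 against 0.06, 0.077 and 0.071. None of the 3 MDA-MB-231 differences passed the test (adjusted p = 0.226, 0.288 and 0.525), although all treated libraries lay above their controls. In U87MG with siRNA-TRA2B the exon stood at 0.031, 0.021 and 0.06 against 0.0, 0.073 and 0.025. The groups overlapped there (difference 0.005, limma adjusted p = 0.962). With another downstream neighbour (chr19:45011936-45012229) the exon differed by 0.101 in U87MG at 200 nM, a call (limma adjusted p = 0.0138). At 50 nM it differed there by 0.306, not a call (adjusted p = 0.0984). In MDA-MB-231 that measure differed by 0.028 and 0.07 at 200 and 50 nM, and the groups overlapped. In the tumours the exon ranged from 0.112 to 1.0 with ASO-1570 and from 0.035 to 0.83 in the controls.

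BIRC3 had lower inclusion of the exon with its start codon in U87MG. The 3526-base exon at chr11:102321837-102325362 holds the start codon. Its PSI in U87MG was 0.727, 0.635 and 0.65 with 200 nM ASO-1570 against 0.956, 0.966 and 0.98 (difference -0.297, limma adjusted p = 0.00304) and 0.737, 0.747 and 0.818 with 50 nM against 0.976, 0.965 and 0.964 (difference -0.201, adjusted p = 0.0117). Libraries of MDA-MB-231 had 0.578, 0.583 and 0.731 at 200 nM against 0.927, 0.91 and 0.952, a difference of -0.299 that missed the threshold (adjusted p = 0.0655). BIRC3 counts rose in MDA-MB-231 and fell in U87MG with ASO-1570, while this exon was lower in every ASO-1570 library of both. With siRNA-TRA2B the 3526-base exon differed by -0.023 in U87MG, without overlap, and by -0.003 in MDA-MB-231. Both siRNA comparisons lay within the minimum range set for a test. A 130-base exon at chr11:102319877-102320006, annotated only in transcripts without a coding sequence, gave the 1 event called in MDA-MB-231, at 0.064, 0.069 and 0.13 with 200 nM ASO-1570 against 0.416, 0.28 and 0.407 (difference -0.28, adjusted p = 0.0496). That call was lost in all 6 fits that left out a single library (adjusted p = 0.0545 to 0.165). Without treated library 3 there were 2 other calls, the 3526-base exon among them (adjusted p = 0.0222). In U87MG at 50 nM the same event stood at 0.063, 0.041 and 0.084 against 0.476, 0.404 and 0.257 (difference -0.316, adjusted p = 0.0187). These events span the 3526-base exon as well. Measured against the nearer downstream exon (chr11:102321837-102322242), the 130-base exon differed by 0.036 and 0.028 in U87MG at 200 and 50 nM (adjusted p = 0.147 and 0.299) and by -0.025 with 50 nM in MDA-MB-231 (adjusted p = 0.648). The direction and size on the 130-base exon thus depended on the neighbour it was measured against.

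NFKBIZ had a 76-base exon (chr3:101829613-101829688), in the untranslated leader of its longer annotated transcripts, at 0.444, 0.536 and 0.271 in U87MG with 200 nM ASO-1570 against 0.874, 1.0 and 0.805 (difference -0.476, adjusted p = 0.012). In the 50 nM experiment it stood at 0.504, 0.521 and 0.522 against 0.935, 0.94 and 0.972 (difference -0.433, adjusted p = 0.00173). With siRNA-TRA2B in U87MG it differed by 0.015 (limma adjusted p = 0.866). The next exon, 1026 bases at chr3:101848892-101849917, stood at 0.235, 0.388 and 0.313 with 50 nM in MDA-MB-231 against 1.0, 0.603 and 0.582, a difference of -0.416 that did not pass the test (adjusted p = 0.278). At 200 nM the same exon differed by -0.062 in that line. NFKB2, NFKBIA, REL, RELA and TNFAIP3 had no called event in any comparison, with 8, 1, 2, 6 and 2 events tested in U87MG at 200 nM.

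The U87MG calls at 50 nM depended on the libraries: between 1 and 10 member events were called when 1 library was left out, 2, 1 and 2 without control library 1, 2 or 3, and 1 with the replicate number as a block. At 200 nM the count was between 10 and 16.

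Other genes of the pathway were taken from 5 lists of 74 genes, written from general knowledge and with results of these data known. At 200 nM, 19 of 71 tested genes were higher and 8 lower in MDA-MB-231, with a median log2 change of 0.19, and in U87MG 14 were higher and 32 lower, with a median of -0.31. At 50 nM the counts were 11 up and 7 down in MDA-MB-231 and 13 up and 29 down in U87MG. The shares for all genes were those given above.

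Target genes made up 12 of the 19 pathway genes that rose in MDA-MB-231 at 200 nM and 4 of the 11 at 50 nM. Of 23 tested, 2 fell at each dose, and the median log2 change was 0.74 and 0.51. TNFAIP2, a gene induced by TNF, rose by 1.03 at 200 nM (SE 0.181, edgeR adjusted p = 0.00171) and by 0.9 at 50 nM. GADD45B, a stress-response gene, rose by 0.89 and 0.62. In U87MG the same list gave 4 up and 11 down at 200 nM (median -0.4) and 3 up and 10 down at 50 nM (median -0.42). TNFAIP2 changed there by -1.23 and -1.19 and GADD45B by 0.85 and 0.69, so that GADD45B rose in both lines. CCL20 fell in U87MG at 50 nM from 25.0, 20.7 and 22.5 CPM to 5.45, 3.24 and 2.74 CPM (log2 change -2.57, SE 0.342, adjusted p = 6.88e-05). BCL2L1, a survival gene, rose in U87MG (0.39 and 0.56) and fell in MDA-MB-231 (-0.28 at both doses).

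Of the 7 ligand genes tested in MDA-MB-231 at 200 nM, TNF alone was called. TNF had 53, 24 and 16 counts with 200 nM ASO-1570 and 5, 3 and 6 with ASO-CTL, and rose (edgeR adjusted p = 0.00468). TNFSF10, which encodes the death ligand TRAIL, stood at 83.6, 79.3 and 70.0 CPM against 77.0, 71.8 and 84.6 CPM in the same comparison, and with siRNA it rose in that line from 82.5 ± 6.93 to 122 ± 3.83 CPM (SD, n = 3, edgeR adjusted p = 0.000663). In U87MG at 200 nM TNF had 444, 993 and 386 counts against 173, 175 and 168 (log2 change 1.72, adjusted p = 0.00257). TNF thus rose in both lines at 200 nM, and at 50 nM it was called in neither. LTA, a relative of TNF, had 93, 172 and 90 counts in U87MG against 34, 4 and 8. IL1A fell in U87MG by 1.13 at both doses (adjusted p = 0.00202 and 0.00037). IL1B, at a far higher level than these ligands, fell there from a mean of 4408.6 to 1653.4 CPM at 200 nM (log2 change -1.41, edgeR adjusted p = 7.17e-06). At 50 nM IL1B fell from 2956.4 to 1424.5 CPM (log2 change -1.05, edgeR adjusted p = 0.000316).

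Among receptors and adaptors, IRAK1 fell in MDA-MB-231 with 200 nM and 50 nM ASO-1570 and with siRNA (log2 change -0.27, -0.31 and -0.25, adjusted p = 0.00306, 0.000603 and 0.0115). BIRC2, which encodes cIAP1, a close relative of the BIRC3 product, fell in U87MG by 1.36 and 1.15 (adjusted p = 2.32e-06 and 2.64e-06). TRAF3, which holds the non-canonical branch in check, fell there at 50 nM by 0.8 (adjusted p = 7.74e-07). Of 20 genes at 200 nM, 1 was higher and 4 were lower in MDA-MB-231, and 3 were higher and 8 lower in U87MG.

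Among kinases, MAP3K8, a kinase that binds the NFKB1 precursor, rose in MDA-MB-231 at both doses (1.13 and 0.76) and in U87MG at 200 nM (0.57). IKBKG, the regulatory subunit of the IkB kinase, and TAB1 fell in U87MG at 200 nM (-0.67 and -0.76). Among other inhibitors and IkB relatives, BCL3 rose in MDA-MB-231 by 0.62 and 0.47 (adjusted p = 0.000259 and 0.00201), and CYLD, a deubiquitinase that restrains the pathway, fell in MDA-MB-231 (-0.33 and -0.25) and in U87MG at 50 nM (-0.92, adjusted p = 6.47e-08). TAX1BP1, a partner of A20, rose in U87MG by 0.57 at both doses.

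With siRNA, 6 of 70 tested pathway genes were higher and 4 lower in MDA-MB-231, and 0 were higher and 3 lower in U87MG. TNFRSF9 fell in both lines (-0.64 and -0.73, adjusted p = 0.00405 and 0.00334), as did TAB3 (-0.17 and -0.19). In the tumours 0 of 60 were called.

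The genes most like the members were found by correlation with the mean profile of the 10 members over the 36 cell line libraries. Each library was centred on the controls of its line and experiment. Correlations were taken for 11626 genes, and the members and listed genes among them were then set aside. The points share libraries and experiments, and the values are descriptions. The highest Pearson correlations were those of C3 (0.94), C1QTNF1 (0.9), BDKRB1 (0.88), GPR176 (0.87) and IL32 (0.87). C3, a complement gene, had log2 changes of 1.5 and 1.05 in MDA-MB-231 and of -0.45 and -0.38 in U87MG at 200 and 50 nM, and of 0.18 and 0.2 with siRNA in the lines in the same order. Of the members themselves, NFKB2 (0.94), NFKBIA (0.93), NFKBIZ (0.93) and RELB (0.91) lay closest to the profile they are part of, and NFKB1 (0.15) and RELA (0.06) farthest from it.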

How the data were processed

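RNA of 46 samples in 14 groups was measured. The deposited gene tables hold raw counts per Ensembl gene, not scaled. Per the submitters' processing notes the authors used FastQC, MultiQC, Trimmomatic, STAR and StringTie with GRCh38 (hg38); versions, counting options and counting strand are not given in the sources used here. Per the labels, the kit was stranded and reads were pairs of 151 bases. The deposited splicing tables hold PSI as a fraction from 0 to 1, from rMATS per the file names, without read counts.

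Counts were tested with edgeR 4.0.16 (R 4.3.3): filterByExpr, TMM scaling, 1 quasi-likelihood fit per table, Benjamini-Hochberg adjustment over all genes tested, calls at adjusted p below 0.05. CPM use TMM-scaled library sizes. Comparisons between experiments used a joint fit of 36 libraries. PSI was tested with limma 3.58.1 (trend) on events that had values in all libraries compared and spanned 0.05 or more, with calls at adjusted p below 0.05 and a mean difference of at least 0.10. The fits were tested on simulated data. Alternatives were RLE scaling, no filter, DESeq2 1.42.0, only the groups compared, a replicate block, each library left out, other PSI limits and, for tumours, the mitochondrial share.

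The members and lists were chosen with earlier results of these data known. Named genes are all members, TRA2B, in each list and comparison up to 2 called genes per direction with the smallest p (a selection is printed), and the 5 genes closest to the members' profile; genes of control tumour 4 and second comparisons of a named gene were added after their values were seen. Named events are the 10 with the largest PSI difference among called events and each member's largest uncalled one. Same-numbered siRNA libraries of U87MG deviated together (r = 0.11, 0.16 and 0.13), which met the rule for pairing. The labels state none, and the block changed no call there. In MDA-MB-231 with siRNA each treated library also correlated most with the control of its own number (r = 0.06, 0.12 and 0.21). Promoters came from RefSeq, exons from GENCODE transcripts. All columns were mapped to samples. SOD2 of the target list matched no identifier.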

Additional observations from a re-analysis of the deposited data

Results flagged for a closer look

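In the control tumours 4 members had 1 tumour far from the other 4, by a gap in relation to the range (Dixon's rule at 95%). It was control tumour 4 each time, with TNFAIP3 at 202 CPM, NFKBIA at 135 CPM, BIRC3 at 26.6 CPM and RELB at 12.6 CPM. Chance alone gives such a value in about 1 of 20 independent groups. Here 4 of the 22 groups of tumours examined had one, all through the same tumour. The groups share tumours, so these counts cannot be set against chance.

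The response to ASO-1570 differed between the lines by a test of the difference itself (edgeR interaction, MDA-MB-231 minus U87MG on the log2 scale). At 200 nM this held for BIRC3 (1.98), RELB (1.6), NFKBIA (1.59), NFKBIZ (1.48), NFKB2 (1.06) and NFKBIE (0.56). At 50 nM it held for BIRC3 (1.76), RELB (1.11), NFKBIA (1.1), NFKBIZ (1.07), NFKB2 (0.66), REL (0.48), NFKB1 (0.31) and RELA (-0.21). Some of these calls were lost in most alternatives: RELA kept its call in 3 of 14 and REL in 4 of 14 at 50 nM, and NFKBIE in 6 of 14 at 200 nM.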

How the results depend on the processing

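Of 1552 alternatives of 139 single values, 1348 kept direction and side of the threshold, 142 lost a call, 15 gained one and 47 changed sign; the cause of no change was tested. The depth behind PSI is unknown, and 3 libraries per group limit every test.

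Counts of called members that moved by over 1.5 times were as follows. In MDA-MB-231 at 50 nM, 7 became 4 without the filter, 4 with the replicate block and 3 with only the groups compared. With siRNA in MDA-MB-231, 0 became 1 with the replicate block, 1 with DESeq2 and 2 with only the groups compared. In U87MG at 50 nM, 3 became 6 with only the groups compared, and the difference of oligonucleotide and siRNA went from 2 to 1 without the filter. Member splicing events went from 1 to 0 in MDA-MB-231 at 200 nM without the minimum range and with the block, from 15 to 28 in U87MG at 200 nM with a limit of 0.05, and from 9 to 1 at 50 nM with the block. Leaving out 1 library gave 3 to 8 (MDA-MB-231, 50 nM), 2 to 4 (U87MG, 200 nM), 4 to 9 (difference of the lines, 50 nM), 1 to 4 (oligonucleotide against siRNA, U87MG), and 0 to 2 (MDA-MB-231, 200 nM) and 1 to 10 (U87MG, 50 nM) splicing events. With siRNA each treated library of both lines correlated most with the control of its own number. In the other comparisons this did not hold for every library. There the block gave 6 calls in MDA-MB-231 and 5 in U87MG at 200 nM, 3 in U87MG at 50 nM and 0 in the tumours.

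Signs changed only for values that were not called. In the tumours, with the mitochondrial share as a covariate, RELA was 0.18 in place of -0.2, NFKB2 -0.11 in place of 0.19 and REL -0.35 in place of 0.15. NFKBIE in U87MG at 50 nM was -0.02 with RLE scaling, -0.07 without the filter and -0.01 with DESeq2, and the line difference of RELA at 200 nM was 0.01 without the filter. Leaving out 1 library gave, in MDA-MB-231 at 200 nM, RELA -0.04 to 0.05 and REL -0.06 to 0.11; in U87MG at 200 nM, REL -0.18 to 0.04 and RELA -0.05 to 0.05; in U87MG at 50 nM, NFKBIE -0.04 to 0.07; in the tumours, REL -0.05 to 0.3. With siRNA in MDA-MB-231 it gave NFKBIZ -0.09 to 0.04, NFKB2 -0.08 to 0.02 and BIRC3 -0.02 to 0.11, and in U87MG TNFAIP3 -0.12 to 0.04, NFKBIA -0.11 to 0.02, NFKBIZ -0.04 to 0.15, NFKB1 -0.04 to 0.1, NFKBIE -0.02 to 0.12 and NFKB2 -0.04 to 0.17. Line differences at 200 nM were RELA -0.09 to 0.06, NFKB1 -0.03 to 0.17 and REL -0.03 to 0.2. PSI differences with siRNA in U87MG were -0.003 to 0.034 (NFKBIZ, 76-base exon), -0.012 to 0.025 (RELB, 264-base exon) and -0.017 to 0.005 (NFKBIE, 223-base exon), and in MDA-MB-231 -0.04 to 0.041 (NFKBIE, 103-base exon), -0.084 to 0.09 (BIRC3, 130-base exon) and -0.47 to 0.03 (NFKBIZ, 1026-base exon, -0.155 with all libraries).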
